A study of Mus musculus with 17 samples.

Results

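The genes described here are 10 interferon (IFN)-stimulated effector genes in the aged mouse heart, *Ifit1*, *Ifit2*, *Ifit3*, *Ifi44*, *Isg15*, *Usp18*, *Rsad2*, *Ifi27l2a*, *Bst2* and *Xaf1*. They were picked by gene symbol, each symbol stood on 1 row of the count table of 56748 genes, and all 10 were among the 16195 genes that passed the filter on low counts. Poly(A) RNA was sequenced from 17 whole hearts of mice aged 12 to 16 months, with 1 library per heart. The 9 hMut hearts came from Polg hMut mice (Polg iMut/iMut; +/Ckmm-cre), in which both *Polg* alleles carry a floxed wild-type cassette. Cre driven by the muscle creatine kinase promoter removes this cassette in cardiomyocytes from mid-gestation, so that these cells express a proofreading-deficient mitochondrial DNA (mtDNA) polymerase. The other cells of these hearts keep the wild-type cassette. The 8 Ctrl hearts are labeled as controls, and their exact genotype is not given in the sources used here. Hearts are named by condition and by the library number in the labels, as in hMut replicate 6. The question was whether these transcripts are higher in hMut than in Ctrl hearts and, if so, how many hearts carry the rise.

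Type I IFNs are secreted proteins that bind the IFNAR1/IFNAR2 receptor, whose kinases JAK1 and TYK2 activate transcription factors that include STAT2. STAT2 acts with IRF9 at IFN-stimulated response elements (ISREs) near the start of target genes. The effectors include RNA-binding IFIT proteins, the ubiquitin-like modifier ISG15 with its protease USP18, and membrane or lipid-associated restriction factors. mtDNA or mitochondrial RNA that reaches the cytosol is a known trigger of the sensors upstream of IFN production. Many of these genes also respond to IFN-γ.

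The sequences below are shown because they hold the letters of an ISRE-like core, a pair of GAAA half-sites with 2 bases between them (GAAANNGAAA), close to the start of members. Windows from 250 bases before to 50 bases after the start of the canonical transcript were read from GRCm39 with GENCODE vM39, the build of the files. The core was searched on both strands, overlapping matches included. It was present in 6 of the 10 member promoters (60%), against 835 of 21757 protein-coding promoters (3.84%), and 5 members held at least 2 matches, against 64 of all promoters (0.294%). The 6 were *Bst2*, *Ifit1*, *Ifit3*, *Isg15*, *Rsad2* and *Usp18*. The windows of *Ifit2*, *Ifi44*, *Ifi27l2a* and *Xaf1* held no match to these letters. Each run below is 30 bases with the core in capitals, read 5′ to 3′ on the strand that carries the core.
Ifit1, first of 2 matches, chr19:34618194-34618223, minus strand: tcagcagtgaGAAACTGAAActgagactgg
Ifit1, second match, chr19:34618175-34618204, minus strand: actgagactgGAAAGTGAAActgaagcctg
Ifit3, first of 2 matches, chr19:34560797-34560826, minus strand: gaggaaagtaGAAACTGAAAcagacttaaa
Ifit3, second match, chr19:34560763-34560792, minus strand: accagaagagGAAAGTGAAActtaccactg
Isg15, middle of 3 overlapping matches, chr4:156285328-156285357, minus strand: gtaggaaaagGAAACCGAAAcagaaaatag
Usp18, first of 2 matches, chr6:121222796-121222825, plus strand: ggatctagggGAAAACGAAAgcttggcggt
Usp18, second match, chr6:121222772-121222801, minus strand: agatccaaagGAAAGCGAAActcaggcacc
Rsad2, single match, chr12:26506552-26506581, plus strand: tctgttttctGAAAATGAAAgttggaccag
Bst2, 1 of 2 overlapping matches, chr8:71990221-71990250, minus strand: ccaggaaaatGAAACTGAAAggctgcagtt
In *Ifit1* the cores lay 58 to 67 and 77 to 86 bases before the start, and in *Isg15* the middle core lay 35 to 44 bases before it. A match is a description of the letters, and binding was not measured.

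The libraries held between 32915159 and 46486964 counts, so that even the lowest member, *Usp18*, had at least 89 counts in every heart. Levels are given as CPM, counts scaled to a common library size with TMM, and errors cover the spread between hearts. *Polg*, the targeted gene, had 57.9 ± 6.08 CPM in the hMut hearts (SD, n = 9) and 34.7 ± 7.31 in the Ctrl hearts (SD, n = 8). By *Xist* and Y-linked counts, which served for a covariate alone, 3 Ctrl and 2 hMut hearts were female. hMut replicates 6 and 9 stood apart from the other libraries in many genes. Of all genes tested, 31.1% were higher in hMut replicate 6 than in every Ctrl heart and 27.9% in hMut replicate 9, against 10.9% to 17.7% in the other hMut hearts. The fold changes of the members, of the pathway genes with the smallest adjusted p and of the 2 largest lists are therefore given with and without this pair.

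The 3 IFIT members encode proteins that bind viral and other non-self RNA and block its translation. They were far higher in hMut replicate 6, moderately higher in hMut replicate 9, and inside or close to the Ctrl range elsewhere. *Ifit1* (ENSMUSG00000034459, chromosome 19, 34618271 to 34627409, plus strand) lay between 4.63 and 10.03 CPM in Ctrl, with a median of 7.36. hMut replicate 6 had 125 CPM (5291 counts) and hMut replicate 9 had 17.3, whereas the remaining 7 hMut hearts had 4.81 to 9.39. Those 7 hearts overlapped the Ctrl hearts completely, and the top pair lay above all of them. Relative to the Ctrl mean, *Ifit1* was 17.7-fold in hMut replicate 6, the widest fold of the 10 members, and 2.45-fold in hMut replicate 9. Over all 9 hMut and 8 Ctrl hearts its log2 fold change was 1.59 (standard error, SE, 0.62; adjusted p = 0.128 over all genes tested, Benjamini-Hochberg, in the quasi-likelihood test of edgeR).

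*Ifit3* (chromosome 19, 34560931 to 34566131) lay between 9.42 and 19.8 CPM in Ctrl (median 12.2). It was at 162 in hMut replicate 6, at 34.5 in hMut replicate 9 and between 8.03 and 17.9 in the others. Its log2 fold change was 1.28 (SE 0.55, adjusted p = 0.158). *Ifit2* (chromosome 19, 34528094 to 34553819) lay between 22.7 and 33.4 CPM in Ctrl (median 24.6), at 167 and 57.2 in hMut replicates 6 and 9, and between 20.9 and 30.3 in the others. The log2 fold change of *Ifit2* was 0.81 (SE 0.36, adjusted p = 0.171). For both genes the 7 other hMut hearts fell within or below the Ctrl range. Ctrl replicate 2 was the highest Ctrl heart for *Ifit1*, *Ifit2* and *Ifit3*, and it was the third highest of all 17 hearts for each of them.

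*Isg15* encodes a ubiquitin-like protein that is conjugated to other proteins, and *Usp18* the protease that removes it and that also binds IFNAR2 and dampens receptor signaling. *Isg15* (chromosome 4, 156283912 to 156285253, minus strand) lay between 3.58 and 7.46 CPM in Ctrl, with a median of 5.52. It reached 49.4 CPM in hMut replicate 6 and 11.8 in hMut replicate 9, and the 7 others lay between 3.58 and 7.52. *Usp18* (chromosome 6, 121222865 to 121247876) lay between 2.82 and 5.65 CPM in Ctrl (median 4.28), at 33.9 in hMut replicate 6, at 10.6 in hMut replicate 9 and between 3.36 and 7.04 in the others. hMut replicate 4 came next for both, at 7.52 CPM for *Isg15*, barely above the highest Ctrl heart, and at 7.04 for *Usp18*. The log2 fold changes were 1.001 for *Isg15* (SE 0.47, adjusted p = 0.190) and 0.96 for *Usp18* (SE 0.43, adjusted p = 0.169). *Usp18* overlaps the antisense gene *Gm44148*, which held at most 6 counts in any heart.

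*Ifi44*, an IFN-inducible cytoplasmic protein gene (chromosome 3, 151436559 to 151455597, minus strand), lay between 3.69 and 7.63 CPM in Ctrl, with a median of 5.71. hMut replicates 6, 9 and 4 had 38.7, 16.9 and 9.62 CPM, whereas the remaining 6 had 3.84 to 7.09. This gene had the largest fold of the members in hMut replicate 9, 2.97 times the Ctrl mean, and in hMut replicate 4, 1.69 times. *Bst2*, which encodes the virion-retaining membrane protein tetherin (chromosome 8, 71986899 to 71990100, minus strand), lay between 20.7 and 28.3 CPM in Ctrl (median 24.9). It was at 109 in hMut replicate 6, 49.4 in hMut replicate 9 and 34.2 in hMut replicate 4. *Bst2* was the member with the most hMut hearts above every Ctrl heart, 5 of 9, since hMut replicates 7 (29.2 CPM) and 1 (28.6) also passed the highest Ctrl heart. The log2 fold changes were 0.95 for *Ifi44* (SE 0.39, adjusted p = 0.144) and 0.67 for *Bst2* (SE 0.26, adjusted p = 0.129).

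*Xaf1* encodes a protein that antagonizes the apoptosis inhibitor XIAP (chromosome 11, 72192455 to 72204559), and its Ctrl hearts were the tightest of the 10 members, between 7.71 and 9.86 CPM. It was at 44.4 CPM in hMut replicate 6, 16.4 in hMut replicate 9 and 10.6 in hMut replicate 4, and between 7.21 and 9.55 in the other 6. *Rsad2*, the gene of the antiviral radical SAM enzyme viperin (chromosome 12, 26492745 to 26506451, minus strand), lay between 19.1 and 34.0 CPM in Ctrl (median 27.3). It was at 86.3, 48.3 and 37.9 CPM in hMut replicates 6, 9 and 4, and hMut replicate 8 was the lowest of all 17 hearts at 15.7. *Ifi27l2a*, an IFI27-family gene (chromosome 12, 103408426 to 103409939, minus strand), moved least. It lay between 8.29 and 17.7 CPM in Ctrl (median 12.96) and reached 27.5 in hMut replicate 6 and 22.5 in hMut replicate 9, and the 7 others lay between 9.74 and 17.6. The log2 fold changes were 0.61 for *Xaf1* (SE 0.32, adjusted p = 0.232), 0.42 for *Rsad2* (SE 0.26, adjusted p = 0.307) and 0.19 for *Ifi27l2a* (SE 0.20, adjusted p = 0.555).

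**Figure D1:**
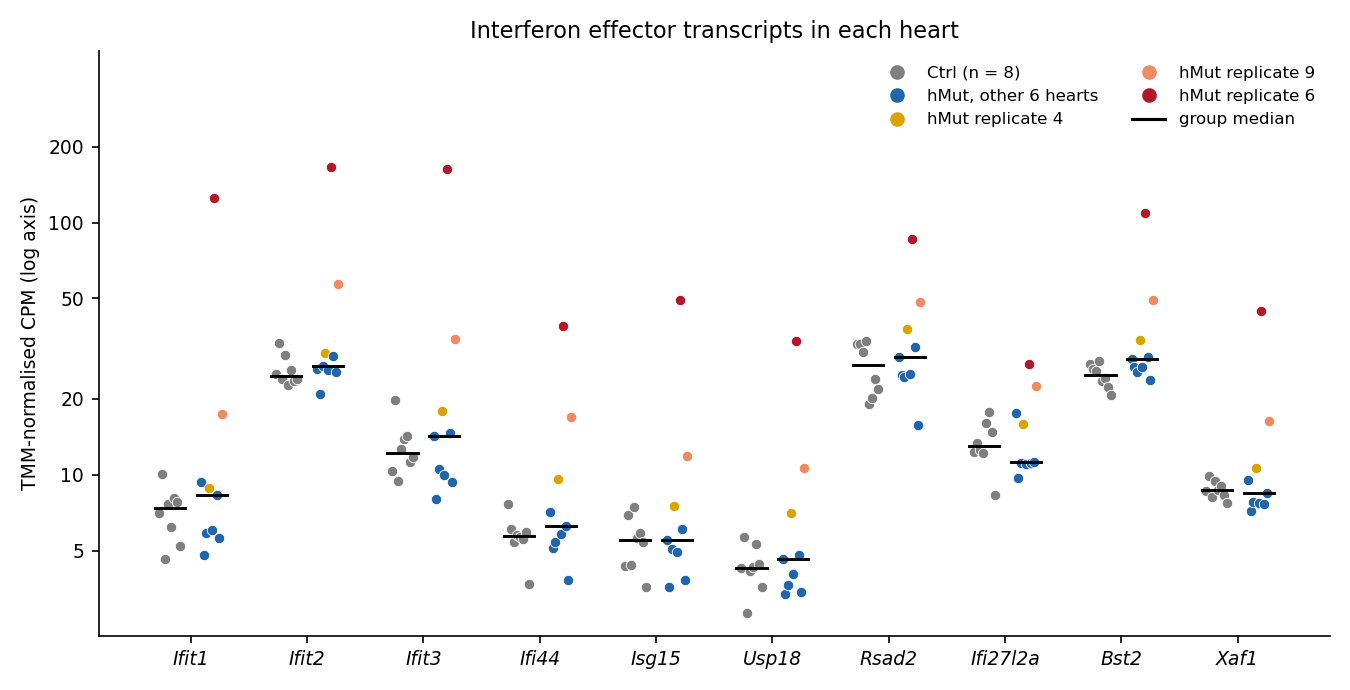
Levels of the 10 genes in TMM-normalized CPM on a log axis, 1 point per heart, for 8 Ctrl hearts (gray) and 9 hMut hearts (blue, with replicates 4, 9 and 6 in other colors); black lines are group medians. The points of hMut replicates 6 and 9 are the highest pair for every gene, and the group medians of Ctrl and hMut lie close together.

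The higher levels were thus found in 2 of the 9 hMut hearts, with a smaller excess in one more. hMut replicate 6 was the highest and hMut replicate 9 the second highest of the 17 hearts for all 10 members, an order that 10.3% of all genes tested shared. For 6 members hMut replicate 4 came next (*Ifi44*, *Isg15*, *Usp18*, *Rsad2*, *Bst2* and *Xaf1*), and 0.988% of all genes had this order of the first 3 hearts. All 10 members were above every Ctrl heart in hMut replicates 6 and 9, against 31.1% and 27.9% of all genes. In hMut replicate 4 this held for 6 members, against 14.7% of all genes. In the remaining 6 hMut hearts it held for *Bst2* alone, in replicates 1 and 7. *Ifit2*, *Ifit3*, *Rsad2* and *Xaf1* each had at least 1 hMut heart below every Ctrl heart. These were hMut replicates 2 (3 members), 7 (1) and 8 (2), where 10.4%, 17.3% and 14.4% of all genes were below every Ctrl heart. All 10 members reached at least 2 times the Ctrl mean in hMut replicate 6 (8.85% of all genes) and 6 in hMut replicate 9 (4.82%). Their folds spanned 2.05 to 17.7 in hMut replicate 6 (median 6.59), 1.68 to 2.97 in hMut replicate 9 (median 2.18) and 1.16 to 1.69 in hMut replicate 4 (median 1.38). Of the summed CPM of the 9 hMut hearts, hMut replicate 6 alone held 65.4% for *Ifit1*, 57.7% for *Ifit3* and 50.5% for *Isg15*, and 19.9% for *Ifi27l2a*.

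The same picture was obtained from 1 value per heart, the mean over the 10 members of log2 CPM minus the Ctrl mean. This value was 2.68 in hMut replicate 6, 1.15 in hMut replicate 9 and 0.46 in hMut replicate 4. The other 6 hMut hearts lay between -0.31 and 0.21, inside the Ctrl range of -0.33 to 0.31. The groups therefore overlapped except for these 3 hearts, and the hMut mean of 0.42 had an SD of 0.96 (n = 9), while the Ctrl hearts had an SD of 0.20 (n = 8). The median of the hMut hearts was 0.13.

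None of the 10 members passed the adjusted threshold of 0.05 between the groups in edgeR's quasi-likelihood test, while 3.48% of all genes tested were called higher and 1.14% lower in hMut. At an unadjusted p under 0.05, 7 of the 10 were higher (all but *Rsad2*, *Ifi27l2a* and *Xaf1*), against 14.5% of all genes. Their median log2 fold change was 0.88, against 0.00 over all genes tested. The count was also 0 with DESeq2, which called 9.61% of all genes, and with limma-voom. DESeq2 by default replaces counts that it takes for outliers in groups of 7 or more, and it replaced the count of hMut replicate 6 for 6 members, *Ifit1*, *Ifit2*, *Ifit3*, *Isg15*, *Usp18* and *Xaf1*. After this replacement the log2 fold change of *Ifit1* was 0.20 (SE 0.22, adjusted p = 0.556), whereas DESeq2 without it gave 1.58 (SE 0.62, adjusted p = 0.0743). Of the 235 genes with a replaced count, 202 had it replaced in hMut replicate 6.

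Without hMut replicate 6, the edgeR log2 fold changes fell to between 0.044 (*Ifi27l2a*) and 0.40 (*Ifi44*). Without both hMut replicates 6 and 9, where 2.67% of all genes were called in either direction and no member was, they lay between -0.093 and 0.17. *Ifit1* was then at -0.020 (SE 0.17, adjusted p = 0.966) and *Ifit3* at -0.092 (SE 0.17, adjusted p = 0.820). *Bst2* had the highest value, 0.17 (SE 0.077, adjusted p = 0.246). Its unadjusted p was 0.0407, and 3 of the 7 remaining hMut hearts were above every Ctrl heart for it. This fit leaves out the hearts that were highest for all 10 members and no Ctrl heart, so values nearer to 0 follow from the choice, and they are given as a description of the remaining hearts.

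**Figure D2:**
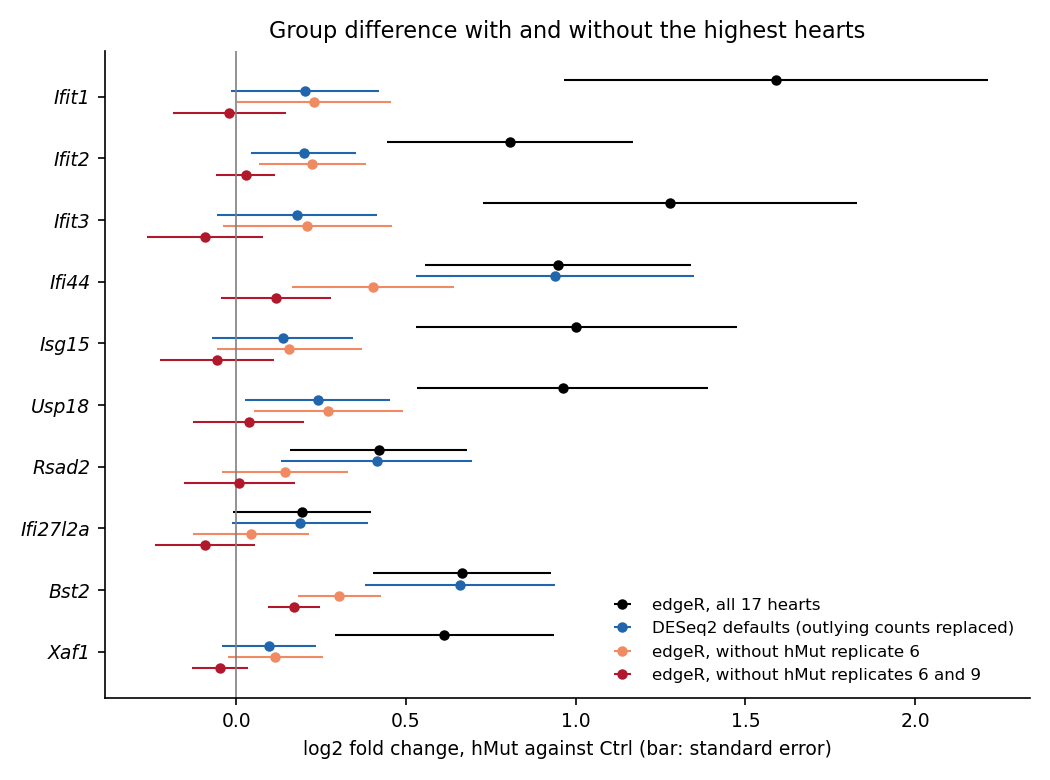
Log2 fold changes of the 10 genes, hMut against Ctrl, with bars of 1 standard error, from edgeR with all 17 hearts (black), DESeq2 with its default replacement of outlying counts (blue), edgeR without hMut replicate 6 (orange) and edgeR without hMut replicates 6 and 9 (red). The red points lie between -0.093 and 0.17, and the blue points of 6 genes fall close to the orange ones because the count of hMut replicate 6 was replaced there.

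Per kilobase of gene model, the members fell into 3 tiers in Ctrl hearts. *Ifi27l2a* (28.9 ± 6.13 CPM per kb, SD, n = 8) and *Bst2* (27.4 ± 2.90) were highest and overlapped each other. *Isg15* (7.75), *Ifit3* (7.40), *Ifit2* (6.63) and *Rsad2* (6.22) came next, with overlapping ranges between neighbors. *Ifit1* (2.67), *Xaf1* (1.86), *Usp18* (1.55) and *Ifi44* (0.931) were lowest, again with overlap between neighbors. In hMut replicate 6 the order on this scale changed, with *Bst2* (121), *Ifit3* (93.1) and *Isg15* (70.3) at the top and *Ifi27l2a* (59.3) behind them.

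The close relatives of the members did not all move with them. The mouse IFIT genes lie next to each other on chromosome 19, 6 genes within 99.3 kb. *Ifit3b*, a near-identical copy of *Ifit3* whose reads the counting could have split with it, was at 53.7 and 13.7 CPM in hMut replicates 6 and 9, against 3.52 to 9.86 in Ctrl. The cores in its promoter had the same letters as those of *Ifit3*. *Ifit1bl1*, between *Ifit3* and *Ifit3b*, was at 6.33 and 5.07 CPM in hMut replicates 6 and 9, within the Ctrl range of 3.98 to 6.75. *Ifit1bl2* starts 128 bases from *Ifit1* and runs the opposite way, so that the windows of both genes hold the same pair of cores printed above for *Ifit1*. Yet *Ifit1bl2* was at 3.48 CPM in hMut replicate 6, below every Ctrl heart (4.96 to 7.69), in the library where *Ifit1* was at its highest. Its log2 fold change was -0.19 (SE 0.12, adjusted p = 0.303).

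**Figure D3:**
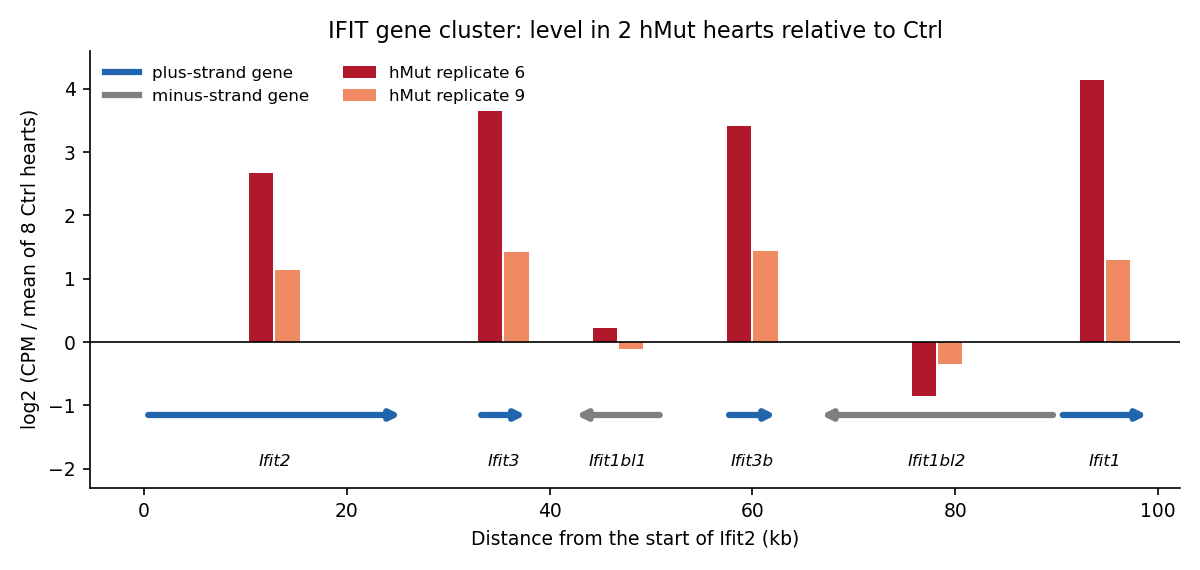
The 6 IFIT genes of the chromosome 19 cluster, drawn to scale as arrows in the direction of transcription against distance from the start of *Ifit2* in kb, with bars for log2 of CPM over the mean of the 8 Ctrl hearts in hMut replicate 6 (red) and hMut replicate 9 (orange). The 4 plus-strand genes, *Ifit2*, *Ifit3*, *Ifit3b* and *Ifit1*, have tall bars, whereas the minus-strand *Ifit1bl1* and *Ifit1bl2* stay near or below 0.

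Among the other relatives, *Ifi44l* had 0 counts in every heart and *Ifi27l2b* was at most 0.521 CPM. *Ifi27*, a neighbor of *Ifi27l2a*, differed from the members in how many hearts moved. It was at 180 and 65.0 CPM in hMut replicates 6 and 9, and it exceeded every Ctrl heart (24.1 to 30.7 CPM) in 7 of the 9 hMut hearts, a count that 3.8% of all genes reached. The excess of the other 5 of these hearts was small, with at most 34.05 CPM. Its log2 fold change was 0.85 (SE 0.34, adjusted p = 0.132).

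The type I IFN ligands were not detectable as transcripts. All 17 genes of the list together held 9 counts over the 17 hearts, at most 4 in any heart, and none was tested. *Ifnb1* had 4 counts in Ctrl and 1 in hMut hearts, *Ifna12* had 1 in Ctrl, *Ifnab* had 1 in Ctrl and 1 in hMut replicate 9, and *Ifna4* had 1 in hMut replicate 6. *Ifna1*, *Ifna2*, *Ifna5*, *Ifna6*, *Ifna7*, *Ifna9*, *Ifna11*, *Ifna13*, *Ifna14*, *Ifna15*, *Ifna16*, *Ifne* and *Ifnk* had 0 counts in every heart. At this depth 0 counts allow up to 3 counts of a library, for counting error only. The receptor and its kinases were present in every heart. Of these 4 genes, 3 were above every Ctrl heart in hMut replicate 6 and 3 in hMut replicate 9, against 31.1% and 27.9% of all genes. *Ifnar1* was at 44.0 and 33.1 CPM in hMut replicates 6 and 9, against 25.9 to 30.3 in Ctrl, and *Ifnar2* at 26.5 and 23.8, against 17.1 to 20.7. *Tyk2* was at 31.1 and 22.9 CPM, against 18.6 to 22.04, and *Jak1* stayed within the Ctrl range in all 9 hMut hearts.

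*Irf7*, the inducible amplifier of type I IFN production, had the smallest adjusted p of the type I pathway genes. It lay between 10.9 and 17.6 CPM in Ctrl and was at 220, 70.8 and 29.6 in hMut replicates 6, 9 and 4, with a log2 fold change of 1.72 (SE 0.55, adjusted p = 0.0727). hMut replicate 7 was also above every Ctrl heart for *Irf7*. Without hMut replicates 6 and 9 its log2 fold change was 0.34 (SE 0.15, adjusted p = 0.249). *Stat2* and *Irf9* were also above every Ctrl heart in the top pair. *Stat2* was at 78.8 and 34.3 CPM in hMut replicates 6 and 9, against 18.4 to 25.9 in Ctrl, and *Irf9* at 63.1 and 33.1, against 18.02 to 22.7. *Irf3*, which is regulated by phosphorylation rather than induction, was at 21.4 and 21.9 CPM, inside the Ctrl range of 18.5 to 23.2. None of *Irf7*, *Stat2*, *Irf9* and *Irf3* passed the adjusted threshold (adjusted p from 0.0727 to 0.501).

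In the ISG15 conjugation pathway, the 4 enzymes other than USP18 were less raised than *Isg15*. *Uba7*, the activating enzyme, was at 71.1 and 28.4 CPM in hMut replicates 6 and 9, the latter below 2 Ctrl hearts (29.0 and 28.7). *Ube2l6*, the conjugating enzyme, was at 56.5 and 21.4 CPM, against 10.4 to 23.5 in Ctrl. The ligase genes *Herc6* and *Trim25* were above every Ctrl heart in both, at 19.5 and 6.56 CPM for *Herc6* and at 68.8 and 53.3 for *Trim25*. Their log2 fold changes lay between 0.05 for *Trim25* and 0.50 for *Herc6*, with adjusted p from 0.289 to 0.751 over the 4 enzymes.

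Of the 10 nucleic acid sensor genes tested, 9 were above every Ctrl heart in both hMut replicates 6 and 9, and none passed the adjusted threshold. Of all genes tested, 31.1% and 27.9% were above every Ctrl heart in these 2 libraries. *Zbp1*, a sensor of Z-form nucleic acid, had the smallest adjusted p of the list, at 31.7 CPM in hMut replicate 6 and 6.49 in hMut replicate 9, against 1.16 to 2.46 in Ctrl (log2 fold change 1.65, SE 0.65, adjusted p = 0.130, and -0.10 without the pair, SE 0.21, adjusted p = 0.838). *Ddx58*, which encodes RIG-I, was at 53.9 and 28.7 CPM, against 13.6 to 18.4, and *Tlr9* at 7.13 and 2.07, against 0.597 to 1.41. *Mavs*, the adaptor of the RNA sensors, was the exception and lay below every Ctrl heart in hMut replicates 4, 6, 8 and 9. Among the 3 genes that restrain the pathway, *Socs1* was at 5.40 and 1.33 CPM in hMut replicates 6 and 9, against at most 0.920 in Ctrl. *Socs3* was at 11.9 and 5.68 CPM, against at most 5.14, and *Pias1* at 25.9 and 22.2, against 24.2 to 35.0.

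A list of 49 further IFN-stimulated effectors was also highest in these hearts. In hMut replicate 6, 48 of the 49 were above every Ctrl heart, all but *Ifitm1*, in hMut replicate 9 it was 46, and in hMut replicate 4 it was 19. The shares of all genes tested were 31.1%, 27.9% and 14.7%. The median log2 fold change of the list was 0.35, and 0 of its genes passed the adjusted threshold in edgeR's test. At an unadjusted p under 0.05 in that test, 16 were higher, against 14.5% of all genes. The smallest adjusted p belonged to *Rnf213* (log2 fold change 0.60, SE 0.20, adjusted p = 0.0870), *Oas3* (1.82, SE 0.62, adjusted p = 0.0882) and *Ifitm3* (0.38, SE 0.13, adjusted p = 0.0917). Without hMut replicates 6 and 9 these values were 0.25 for *Rnf213* (adjusted p = 0.0996), 0.48 for *Oas3* (adjusted p = 0.465) and 0.18 for *Ifitm3* (adjusted p = 0.203), and the median of the list was -0.0021, against -0.0058 over all genes. *Rnf213*, a large ubiquitin ligase, was at 119, 67.4 and 45.5 CPM in hMut replicates 6, 9 and 4, against 28.6 to 44.3 in Ctrl. *Ifitm3*, which blocks virus entry at endosomes, was above every Ctrl heart in 5 hMut hearts, at 101 and 86.6 CPM in the top pair. Over all type I pathway lists other than the members, 0 of 79 genes tested passed with edgeR. DESeq2 called *Rnf213*, *Oas3* and *Ifitm3*, and limma-voom with quality weights called *Rnf213* and *Slfn5*.

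hMut replicates 6 and 9 had unlike values in genes that respond mainly to IFN-γ, the type II IFN made by T and NK cells. The list holds 19 genes, among them guanylate-binding proteins, immunity-related GTPases and *Cxcl9*. In hMut replicate 6 all 19 were above every Ctrl heart, by 3.37-fold to 26.3-fold over the Ctrl mean (median 8.29), and the median exceeded that of the 10 members. In hMut replicate 9, 8 of the 19 were above every Ctrl heart, with a median of 1.26-fold, whereas the members there had a median of 2.18-fold. Of all genes tested, 31.1% were above every Ctrl heart in hMut replicate 6 and 27.9% in hMut replicate 9. *Iigp1*, an immunity-related GTPase, was at 1070 CPM in hMut replicate 6 but at 52.0 in hMut replicate 9, below every Ctrl heart (59.9 to 238). *Gbp2* was at 165 and 23.3 CPM, against 18.4 to 24.1. *Cxcl9*, a chemokine for T cells, was at 112 and 8.90 CPM, against 4.03 to 8.60, and had the smallest adjusted p of the list (log2 fold change 1.62, SE 0.65, adjusted p = 0.136). *Gbp8* and *Irgm1* had the next smallest, with log2 fold changes of 1.97 (SE 0.81, adjusted p = 0.139) and 1.59 (SE 0.67, adjusted p = 0.149). None of the 19 passed the adjusted threshold in edgeR's test. At an unadjusted p under 0.05, 5 were higher, against 14.5% of all genes. Without hMut replicates 6 and 9 the values were -0.017 for *Cxcl9*, -0.33 for *Gbp8* and -0.16 for *Irgm1*, and the median of the list moved from 0.81 to -0.14.

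In Ctrl replicate 2 the balance between the lists was the reverse of that in hMut replicate 9. It held the highest Ctrl values of *Igtp* (94.3 CPM, against a Ctrl median of 16.9), *Iigp1* (238, median 77.1) and *Irgm2* (86.5, median 32.5), all immunity-related GTPases. Its mean over the IFN-γ list was 0.62 on the log2 scale, above the 0.43 of hMut replicate 9, while its mean over the 10 members was 0.31, below the 1.15 of hMut replicate 9. Each of these is a single heart, so the difference in mix was not tested.

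**Figure D4:**
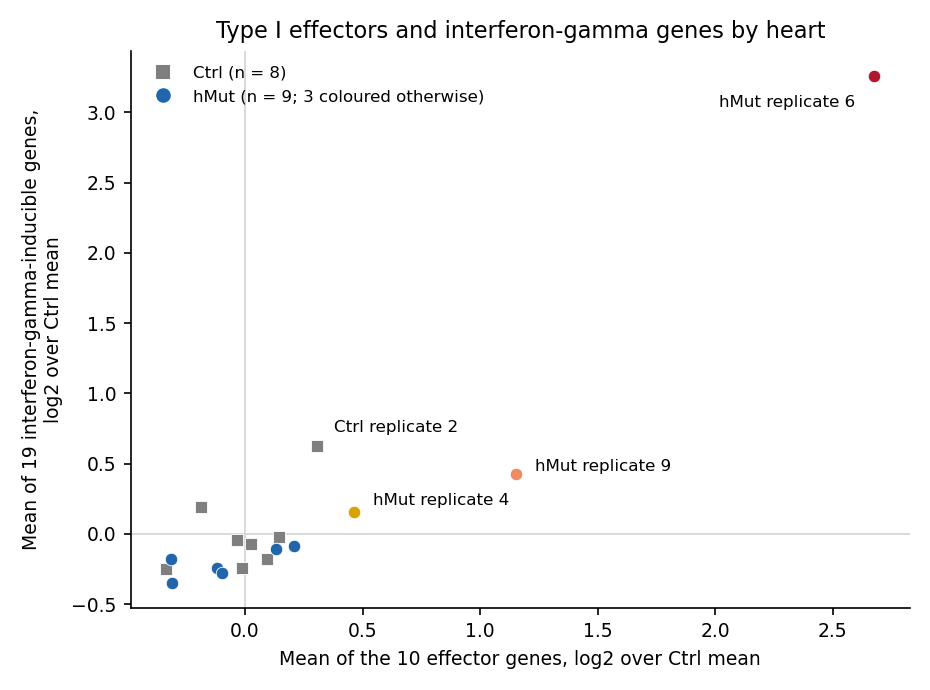
Mean log2 level over the Ctrl mean of the 10 effector genes (x axis) against that of 19 IFN-γ-inducible genes (y axis), 1 point per heart, for 8 Ctrl (squares) and 9 hMut hearts (circles). hMut replicate 6 lies at 2.68 and 3.26, hMut replicate 9 is far to the right but low at 1.15 and 0.43, and Ctrl replicate 2 lies at 0.31 and 0.62.

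Summed markers of some other cell types, among them macrophages and fibroblasts, were also above every Ctrl heart in hMut replicates 6 and 9. Those of others, such as B cells, were inside the Ctrl range. In a whole heart, more cells of a type and more RNA per cell cannot be told apart. The counts of markers stand beside the 31.1% and 27.9% of all genes above every Ctrl heart in hMut replicates 6 and 9. The 8 macrophage markers summed to 717 CPM in hMut replicate 6 and 393 in hMut replicate 9, against 159 to 226 in Ctrl and 186 to 237 in the other 7 hMut hearts, and all 8 were above every Ctrl heart in both. Of these, *Adgre1* was at 77.3 and 38.2 CPM, against at most 18.6 in Ctrl, *Csf1r* at 97.4 and 75.7, against at most 46.1, and *Cd68* at 29.6 and 14.8, against at most 9.99. The 8 T cell markers summed to 85.0 CPM in hMut replicate 6, with all 8 above every Ctrl heart, and to 8.86 in hMut replicate 9, with 1 above (*Cd5*), against 2.38 to 12.3 in Ctrl. The upper Ctrl limit came from Ctrl replicate 3 alone. Against the other 7 Ctrl hearts, which had at most 5.99 CPM, hMut replicate 9 was also above all, with 5 of the 8 markers above each of them (a comparison chosen after the values were seen). *Cd3d*, *Cd3e* and *Cd3g* were at 5.28, 8.60 and 11.6 CPM in hMut replicate 6 and each below 1 CPM in hMut replicate 9.

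Conventional dendritic cell markers summed to 74.8 and 39.6 CPM in hMut replicates 6 and 9, against at most 35.3 in Ctrl, with 4 of 6 above every Ctrl heart in both. *Flt3* was at 4.29 and 1.62 CPM, *Xcr1* at 9.05 and 1.38 and *Clec9a* at 11.3 and 4.91. *Zbtb46*, the largest part of the sum in hMut replicate 9, was at 20.4 and 26.1 CPM, inside its Ctrl range of 16.1 to 26.7. *Cd209a* was also inside its Ctrl range in both hearts. Of 6 genes listed for plasmacytoid dendritic cells, potent producers of type I IFN, 2 were above every Ctrl heart in hMut replicate 6 and 0 in hMut replicate 9. The first count is near the share of all genes in that heart, 31.1%. The 2 genes were *Pacsin1*, at 2.27 CPM against at most 1.44, and *Ccr9*, near the floor at 0.284 against at most 0.226. *Siglech* was at 0.213 and 0.180 CPM in hMut replicates 6 and 9, against 0.174 to 0.729. The sum of this list, 791 and 802 CPM in the pair against 1057 to 1206 in Ctrl, is mostly *Cox6a2*, which heart muscle also expresses (664 and 668 CPM in the pair, and 936 to 1096 in Ctrl). Monocyte and neutrophil markers summed to 44.7 and 22.1 CPM, against at most 16.3 in Ctrl, mostly from *Ccr2*. Of these 6 markers, 2 were above every Ctrl heart in each of the pair. That is not far from the 31.1% and 27.9% of all genes. *S100a8* and *S100a9* were inside the Ctrl range in both hearts, and the neutrophil marker *Ly6g* was at most 0.0747 CPM in any heart. The 5 NK cell markers summed to 6.73 CPM in hMut replicate 6 and 1.10 in hMut replicate 9, against 0.431 to 1.93 in Ctrl. In hMut replicate 6, *Klrd1* (3.91 CPM) and *Eomes* (1.47) were above every Ctrl heart, and the other 3 (*Ncr1*, *Klrb1c* and *Gzma*) were inside the Ctrl range. This count, too, is not far from the 31.1% of all genes. B cell markers were highest in Ctrl replicate 3 (58.7 CPM), at 9.93 and 7.15 in hMut replicates 6 and 9.

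The 5 fibroblast markers summed to 1378 and 1118 CPM in hMut replicates 6 and 9, against 701 to 845 in Ctrl, all 5 above every Ctrl heart in both. *Pdgfra* was at 52.5 and 54.1 CPM, against 40.0 to 52.3 in Ctrl, and *Dcn* at 532 and 537, against 396 to 504. The 2 collagen genes of the list lay further above their Ctrl ranges. *Col1a1* was at 213 and 136 CPM, against 46.6 to 81.8, and *Col3a1* at 571 and 383, against 98.1 to 238. The 8 cardiomyocyte markers were present at high levels in every heart. Their sums were lowest in this pair, at 31837 and 30047 CPM, against 39203 to 47251 in Ctrl and 38617 to 45871 in the other hMut hearts. Of the 8, 7 were below every Ctrl heart in hMut replicate 6 (28.8% of all genes) and 6 in hMut replicate 9 (26.6%). *Myh6*, for example, was at 10202 and 8187 CPM, below its Ctrl range of 11774 to 16003. *Actc1* was inside the Ctrl range in both hearts. *Ttn* was inside it in hMut replicate 9, at 1496 CPM against 1085 to 1556. The 5 genes listed for atrial muscle summed to 702 and 450 CPM in the pair. Their sums were 38.6 to 166 CPM in Ctrl and 78.3 to 239 in the other hMut hearts. Most of the sum was *Nppa* (685 and 423 CPM), which the paper uses as a cardiac stress marker. Only *Nppa* and *Bmp10* were above every Ctrl heart in the pair, and *Bmp10* was so in the other hMut hearts too. The mtDNA-encoded share of counts was lower in every hMut heart (15.9% to 23.0%) than in every Ctrl heart (23.5% to 30.9%), with 15.9% in hMut replicate 6 and 20.6% in hMut replicate 9. hMut replicate 4, where 6 members exceeded every Ctrl heart, had 212 CPM of macrophage and 5.30 of T cell markers, both sums inside the Ctrl range. Its 5 endothelial markers summed to 966 CPM, against 701 to 891 in Ctrl. Of these 5, 3 were above every Ctrl heart, and so were 3 of its 5 fibroblast markers, against 14.7% of all genes. The fibroblast sum, 816 CPM, was inside the Ctrl range. Endothelial sums were 784 and 947 CPM in hMut replicates 6 and 9, and at most 1058 in the other hMut hearts. The part of any of these cell types in the levels of the 10 members was not tested.

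**Figure D5:**
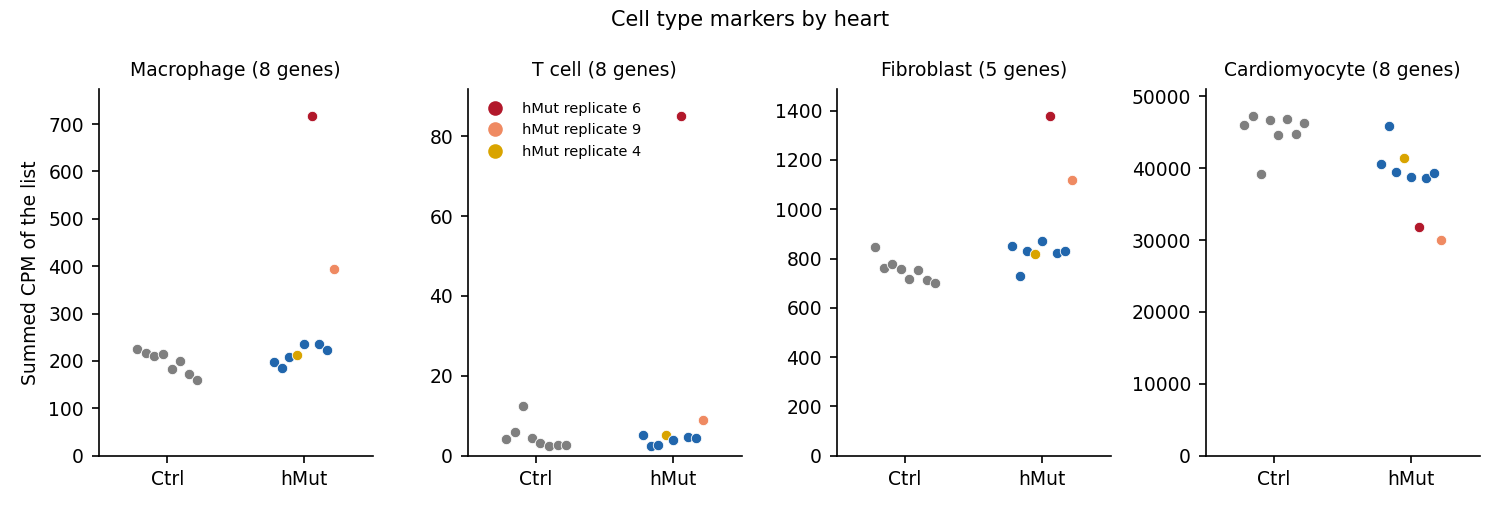
Summed CPM of marker genes for macrophages, T cells, fibroblasts and cardiomyocytes, 1 point per heart, for 8 Ctrl (gray) and 9 hMut hearts (blue, with replicates 4, 9 and 6 in other colors); each axis starts at 0. hMut replicates 6 and 9 are highest for macrophage and fibroblast markers and lowest for cardiomyocyte markers, and hMut replicate 6 alone is far above the rest for T cell markers.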

How the data were processed

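Per the labels and the study's methods, the authors sequenced poly(A) RNA of whole hearts on a NovaSeq X Plus and used fastp for read filtering, HISAT2 (2.2.1) for alignment to GRCm39 and featureCounts (2.0.6) for counting; the strand setting and annotation release are not given in the sources used here. The authors deposited these raw counts without normalization. The labels number the hearts but do not pair them, and groups (8 Ctrl, 9 hMut) follow the genotype label.

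Genes were kept with filterByExpr and tested with edgeR (4.0.16, R 4.3.3), using TMM scaling, the quasi-likelihood test with genotype as the sole term, and Benjamini-Hochberg adjustment over 16195 genes (threshold 0.05). Standard errors were obtained from the log2 fold change and the F statistic, as its size over the root of F. CPM are TMM-scaled, and mean levels per heart used log2 CPM with a prior count of 2. On simulated counts for these 16195 genes, 81.8% of changes of 1 and 99.0% of changes of 2 on the log2 scale were recovered. These shares are over 88 and 103 genes, and 18 unchanged genes were also called. Recovery of a rise carried by only a few hMut hearts, like that of the members, was not tested. Promoter windows were read from GRCm39 with GENCODE vM39. Alternatives were DESeq2 (1.42.0) with and without replacement of outlying counts, limma-voom (limma 3.58.1) with and without quality weights, RLE scaling, robust dispersions, other filters on low counts (a count above 0, or a mean of at least 50), mtDNA-encoded genes left out, sex or replicate number as a term, each library left out, and hMut replicates 6 and 9 left out. Leaving out Ctrl replicate 3 for the T cell markers was added after seeing the data.

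All members, all member relatives, ligands, receptor and kinase, transcription factor and ISG15 pathway genes are named, and of other pathway lists the genes past the threshold or otherwise the 3 with the smallest adjusted p. Further genes (*Iigp1*, *Igtp*, *Irgm2*, *Gbp2*, *Mavs*, *Slfn5* and *Ifitm1*) were chosen after their values were seen. So were the markers *Col1a1*, *Col3a1*, *Nppa*, *Bmp10*, *S100a8* and *S100a9*. Among the transcription factors, a listed item is left out and not reported here. The members and lists were chosen with earlier results of these data known. mtDNA mutation burden per heart was not used here.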

Additional observations from a re-analysis of the deposited data

Results flagged for a closer look

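Within each group, the highest and the lowest heart were compared with the nearest other heart, as the gap divided by the group's range in log2 CPM. For 9 hMut hearts a share above 0.493 marks a heart far from the others. hMut replicate 6 passed it as the highest heart for 7 of the 10 members, with shares of 0.608 for *Ifit1*, 0.549 for *Xaf1*, 0.547 for *Isg15*, 0.519 for *Bst2*, 0.516 for *Ifit3*, 0.515 for *Ifit2* and 0.505 for *Usp18*, and for the mean over the members with a share of 0.510. No Ctrl heart passed the limit for 8 hearts, which is higher, for any member. Ctrl replicate 8 came closest as the lowest heart, with 0.521 for *Ifi44* and 0.514 for *Ifi27l2a*. Both shares are above 0.493 and similar to several of those of hMut replicate 6. For *Ifi44*, *Rsad2* and *Ifi27l2a* the share stayed under the limit. Chance marks about 1 in 20 groups, and 22 groups were checked, but the 8 marks all concern 1 library and are not independent. Why this heart stands apart was not tested.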

How the results depend on the processing

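No member passed the adjusted threshold under any of the 29 alternatives, where adjusted p for the 10 members ranged from 0.0743 to 0.997, and of 290 member log2 fold changes 284 kept their sign. Without hMut replicates 6 and 9 the sign turned for *Ifit1* (-0.020), *Ifit3* (-0.092), *Isg15* (-0.056), *Ifi27l2a* (-0.093) and *Xaf1* (-0.047), and so did the median over the members (-0.0057); limma-voom with quality weights, which lowers the weight of libraries far from the fit, turned *Ifi27l2a* (-0.085). The median over the members, 0.88 with all hearts, was 0.20 with DESeq2's defaults, 0.49 with limma-voom, 0.087 with quality weights, 0.32 with the replicate block, and 0.22 (without hMut replicate 6) to 0.97 when 1 library was left out. The 749 genes called became 1556 with DESeq2's defaults, 1562 without its replacement, 2081 with quality weights, 463 with no filter on low counts, 431 without hMut replicates 6 and 9, and 395 (without hMut replicate 5) to 1792 (without hMut replicate 2) when 1 library was left out. Genes called in the type I pathway lists, 0 with edgeR, were 3 with DESeq2's defaults, 4 without replacement (*Irf7* added), 2 with quality weights and 0 to 6 when 1 library was left out, the 6 being without hMut replicate 2. No gene of the IFN-γ list was called under any alternative. The replicate block gave 195 calls and 0 among the members. hMut replicate 9 has no Ctrl heart of its number, so this fit gives it no weight. Of the 8 correlations of same-numbered hearts, 7 were below 0, between -0.23 and -0.01, and the eighth was 0.34. The labels do not pair the hearts. These correlations cannot tell whether the numbers do, since paired hearts need not shift together. Levels per heart and the number of members above every Ctrl heart moved by less than the Ctrl SD or by none under RLE scaling, without mtDNA-encoded genes, with a prior count of 0.5 and, for the level, with the median over members. The causes of these shifts were not tested.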
